A study of Mus musculus with 15 samples.

Results

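Microglia sorted from mouse brain 14 days after a controlled cortical impact were compared with microglia from sham-operated mice, over all endogenous genes of an nCounter immunology panel. The comparison holds 8 of the 15 samples of the series, 4 labelled 14 dpi (days post-injury) and 4 labelled sham, and 547 endogenous genes. Both groups came from male C57BL6J mice with no genetic change, whose age at surgery stands as both 2 and 3 months in the sources. The injured mice received a controlled cortical impact, a piston blow to the exposed cortex, and were taken at 14 dpi. The sham mice had surgery without the impact and were taken 2 days after it, so time since surgery and injury cannot be told apart in this comparison, and the later injured groups were not randomized. In both groups the dissociated brain was sorted for cells high in CD11b and low to intermediate in CD45, a gate that holds microglia from the whole tissue rather than the lesion alone and that can also admit other CD11b-positive cells. The other samples were 4 at 2 dpi, from the same run, and 3 at 60 dpi, from a second run. All entered the same statistical fit, and those at 2 dpi are compared below where they show how 14 dpi differs.

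Microglia are the resident macrophages of the brain. They survey the tissue through receptors such as Cx3cr1 and Csf1r, and after damage they change to a reactive state in which receptors for microbial and cell debris signal through NF-kappaB, a family of transcription factors held in the cytoplasm by inhibitor proteins until a kinase complex releases them. Type I interferons, which are released by cells and act through their own receptors, induce a second set of genes through Stat and Irf factors, and interferon gamma raises the genes of antigen presentation. In ageing, demyelinated and diseased mouse brain, microglia take up a further state with high Itgax, Csf1, Cd9 and MHC genes, known as disease-associated microglia.

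The nCounter instrument counts a color-coded probe for each mRNA molecule without amplification. The total over endogenous genes ranged from 66905 to 280528 in sham samples and from 108128 to 238060 at 14 dpi. All 8 samples came from 1 run, with sham in lanes 1 to 4 and 14 dpi in lanes 9 to 12, so lane position and group cannot be told apart. Values below are normalized counts, the raw counts divided by a factor from the positive controls and the housekeeping genes, and background was passed in a sample where the raw count was over a limit set at 2 SD past the negative-control mean. Of the 547 genes, 359 were above background in at least 3 of the 15 samples and were tested. Of the 188 left out, 164 had no sham and no 14 dpi sample above background. The microglial markers Cx3cr1, Csf1r and Itgam were above background in all 8 samples, and the summed level of the 11 microglial markers on the panel was 35454 to 46379.8 in sham and 44414 to 51104 at 14 dpi. Of 20 T cell markers 12, of 10 B cell markers 7 and of 9 NK cell markers 7 were not above background in any of the 8, Cd3e and Cd8a among them. The T cell markers Cd3d, Cd247 and Cd28 were above it in 3, 4 and 4 sham samples and in all 4 samples at 14 dpi. In these RNA pools fewer cells of a type and less RNA per cell cannot be told apart. Marker sums here and below have no background subtracted, so sums over genes near background hold scaled background counts.

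A sham sample and an injured sample stood apart. Sham sample 4 carried neutrophil granule RNA, with a summed level of 9225 over 10 neutrophil markers. The remaining sham samples had 1201 to 1667 and the injured ones 1428 to 2301. S100a8 read 3595 in that sample and 92.0 to 296 in the others, and Camp read 691 against 12.8 to 49.0. Sample 1 at 14 dpi was the lowest of its group in 161 of the 359 tested genes (44.8%), against 52 to 82 for each of the other 3. Its background limit was 17.9 normalized counts against 24.3 to 49.2 in the others, and no background is subtracted. The count thus includes genes near background that read lowest in it, such as Ctsg (4.87 against 17.9 to 23.6), and their part was not tested. Sample 1 is described with the genes it touches. Its summed endothelial and pericyte markers, 7 on the panel, were 1236 against 435 to 787 in the others and 408 to 659.8 in sham. Among the 14 housekeeping genes Tubb5, a tubulin, was lower at 14 dpi in every sample (205 ± 27.0 against 391 ± 93.2, SD, n = 4 each), and Rpl19, a ribosomal protein, was higher in every sample (2248 ± 243 against 1395 ± 118), while the other 12 overlapped between groups and lay between -0.29 and 0.33 on the log2 scale.

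At 14 dpi the sorted cells had 77 genes higher and 15 lower than in sham (edgeR quasi-likelihood test, Benjamini-Hochberg adjusted p under 0.05), which is 21.4% and 4.18% of the 359 tested, or 25.6% together. The rises were larger than the falls. They ran from 0.44 to 3.67 on the log2 scale, 43 of the 77 were 2-fold or more and 6 were 4-fold or more, whereas the falls ran from -0.43 to -0.81 and 0 of the 15 reached 2-fold. The value of 3.67 belongs to Ifnb1, in which no sham sample was above background. Among the largest rises were the chemokine Ccl5, the integrin Itgax, the chemokine receptor Cxcr4, the inhibitory receptor Lilrb4 and the complement component C3. Among the largest falls were the flagellin receptor Tlr5 and the oxysterol receptor Gpr183. All 4 samples at 14 dpi lay above all 4 sham samples in 56 of the 77 genes, and below them in 10 of the 15, against 60 (16.7%) and 15 (4.18%) of all tested genes. The median difference over all tested genes was 0.08. With TMM factors, which centre the bulk of the genes on no change, it was -0.08, and the calls became 68 higher and 65 lower, so that 51.1% rather than 83.7% of the calls were rises. The TMM calls kept 67 of the 77 and all 15 of the 15. With positive-control factors alone, which do not correct for RNA input, 20 genes were called higher, 19 of them from the 77, and 0 lower (10 lower at an unadjusted p under 0.05).

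**Figure D1:**
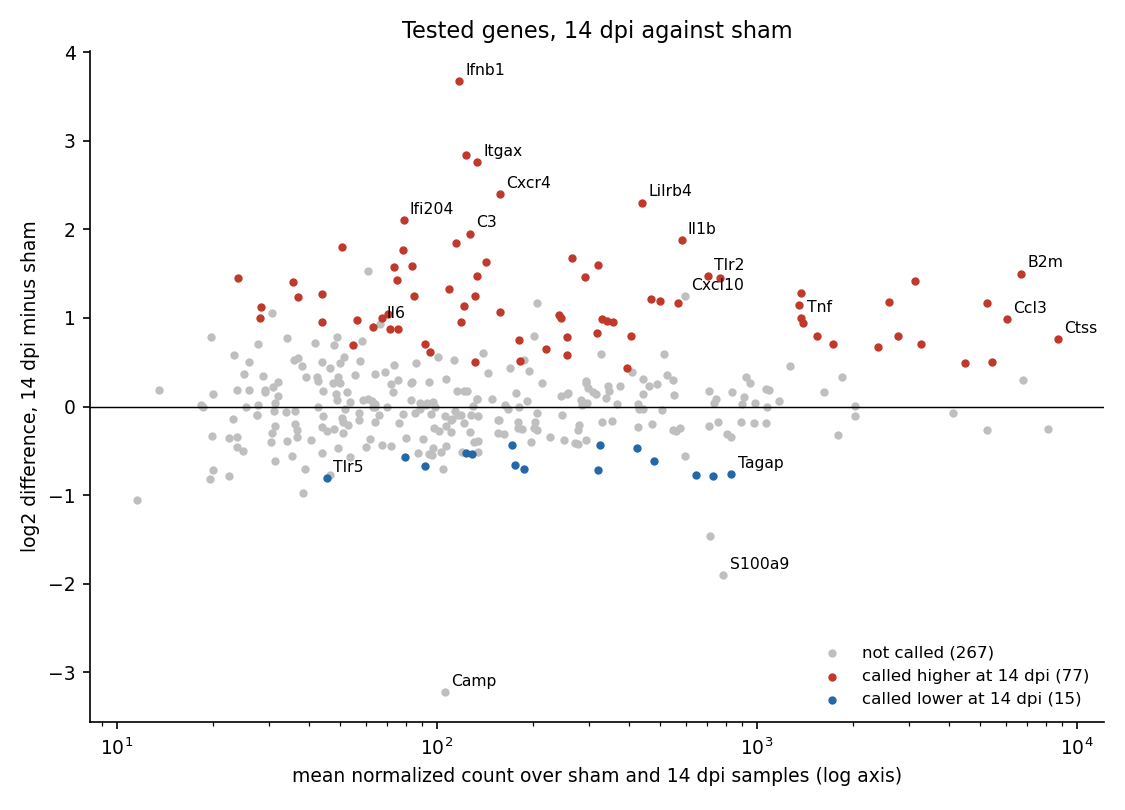
Each point is 1 of the 359 tested genes, with its mean normalized count over the 8 samples (log axis) against its log2 difference between 14 dpi and sham. The 77 red points called higher reach 3.67 (Ifnb1, with no sham sample above background), and the 15 blue points called lower reach -0.81 (Tlr5). The grey points far below, such as Camp and S100a9, are genes not called in which sham sample 4 was far above the other sham samples.

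Of the secreted signals, 4 of the 11 tested CC chemokines rose, beside 21.4% of all tested genes. Of the 7 tested CXC and other chemokines none was called, and 2 were without 14 dpi sample 1. The difference between these lists was not tested. Ccl5, which draws T cells and monocytes, read 47.0, 31.2, 27.3 and 20.6 in sham samples 1 to 4 and 108, 315, 238 and 204 in 14 dpi samples 1 to 4. Every 14 dpi sample lay above every sham sample, and the log2 difference was 2.84 ± 0.36 (SE, adjusted p = 1.82e-05). Ccl3 and Ccl4, which act on Ccr1 and are abundant in reactive microglia, also rose without overlap. Ccl4 read 2869, 3764, 3126 and 3135 in sham and 4117, 8906, 8359 and 7689 at 14 dpi (log2 difference 1.17 ± 0.26, adjusted p = 0.00277), and Ccl3 rose by 0.99 ± 0.22 (adjusted p = 0.00243). Ccl19, the ligand of Ccr7, rose by 1.45 ± 0.39 (adjusted p = 0.00932) from values near background, 8.83 to 19.8 in sham and 17.9 to 47.3 at 14 dpi, which overlapped. It was not called after subtraction of the negative-control mean or with limma on the authors' values (adjusted p up to 0.14 over the alternatives that tested it). Ccl2 and Ccl12, attractants of monocytes in the mouse, differed by 0.02 ± 0.23 and -0.56 ± 0.23 (adjusted p = 0.965 and 0.0886). Among the CXC chemokines Cxcl10, which is induced by interferon, read 569.8, 346, 165 and 348 in sham and 276, 1206, 1009.5 and 873 at 14 dpi. The 3 higher samples exceeded all of sham, sample 1 lay within it, and the difference of 1.25 ± 0.45 did not pass (adjusted p = 0.061). It passed without 14 dpi sample 1 (adjusted p = 0.00533), as did Cxcl1, a neutrophil attractant (adjusted p = 0.0336).

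Among the cytokines Il1b, the main secreted interleukin 1, read 221, 416, 153 and 209.7 in sham and 757, 990.1, 990.0 and 931 at 14 dpi. The groups did not overlap, and the 14 dpi samples stood close together (log2 difference 1.88 ± 0.33, adjusted p = 0.000577). Il1rn, the natural antagonist of the interleukin 1 receptor, read 43.1, 53.0, 10.2 and 40.5 in sham and 41.7, 117, 186 and 137 at 14 dpi. Sample 1 lay in the sham range, and the rise of 1.77 ± 0.52 (adjusted p = 0.0207) did not pass without 14 dpi sample 3 (adjusted p = 0.0616). The decoy receptor Il1r2 and the cytokine Il1a were the other members of the interleukin 1 list that rose, 4 of 16 tested, a share near the 21.4% of all tested genes. Il1r2, which neutrophils also carry, rose by 1.43 ± 0.50 (adjusted p = 0.0482) and Il1a by 0.70 ± 0.24 (adjusted p = 0.0407). Each lost its call on leaving out any of 6 samples, all but sham sample 2 and 14 dpi sample 1 for Il1r2 (adjusted p up to 0.142) and all but sham sample 3 and 14 dpi sample 1 for Il1a (adjusted p up to 0.157). The list counted 1 rise without 14 dpi sample 3, 2 without sham sample 4 or 14 dpi samples 2 or 4, 3 to 5 without each of the others, and 2 with TMM factors. Il18 differed by -0.05 ± 0.20.

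Of 10 tested members in the list of Tnf, Il6 and other inflammatory cytokines, 4 rose, beside 21.4% of all tested genes. Csf1, the growth factor that maintains microglia through Csf1r, read 407, 471, 426 and 347 in sham and 899, 1490.1, 1215 and 895 at 14 dpi (1.45 ± 0.23, adjusted p = 0.000134), with no overlap. Tnf read 989, 1112, 660.3 and 916 in sham and 842, 2456, 1939 and 2095 at 14 dpi. Sample 1 was again within sham, and the other 3 were about level with each other. The rise of Tnf was 1.0 ± 0.33 (adjusted p = 0.0367), and it lost its call on leaving out any sample but sham sample 2 and 14 dpi sample 1 (adjusted p up to 0.12). Litaf, a regulator of Tnf expression, rose by 1.13 ± 0.24 (adjusted p = 0.00183). Il12b, the shared chain of interleukins 12 and 23, rose by 1.24 ± 0.40 (adjusted p = 0.0303), with no call without sham sample 3 or 14 dpi samples 2, 3 or 4 (adjusted p up to 0.153). Il6, with 45.0, 67.0, 36.9 and 35.3 in sham and 43.8, 112, 103 and 89.5 at 14 dpi, differed by 0.93 ± 0.34 and just missed the threshold (adjusted p = 0.0501). It passed without 14 dpi sample 1 (adjusted p = 0.0077) and with TMM factors (adjusted p = 0.0454). The list counted 2 rises without sham sample 3 or 14 dpi samples 2, 3 or 4.

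Ifnb1, interferon beta, had the largest fitted difference. It read 25.5, 21.8, 9.62 and 16.2 in sham, where no sample was above background, and 23.6, 361, 234 and 248 at 14 dpi. Samples 2 to 4 at 14 dpi were thus far above sham and sample 1 was within its range. Against the sham background limit the mean at 14 dpi was at least 6.14-fold higher (adjusted p = 0.00277). The panel's interferon alpha probe Ifna1 and Ifng were not above background in any of the 8 samples. The receptor chains moved little, with differences of 0.03 ± 0.18 for Ifnar1, 0.16 ± 0.14 for Ifnar2, -0.19 ± 0.16 for Ifngr1 and 0.03 ± 0.15 for Ifngr2, none of which passed.

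Of 14 tested interferon-induced genes 6 rose and none fell, beside 21.4% and 4.18% of all tested genes. Their median difference was 0.72 against 0.08 over all tested genes. In 14 dpi sample 1 Ifnb1 was 1.29-fold over the sham mean, Ifi204 4.20, Ifit2 2.45, Bst2 1.63, Ifih1 1.55 and Ifi35 1.45-fold. In the mean of the other 3 injured samples these were 15.4, 4.11, 3.77, 1.73, 3.17 and 1.68-fold. No sham sample was above background in Ifnb1, so its ratios are to a background level and are not folds of expression. Whether the rises are linked to Ifnb1 was not tested. Ifi204, a member of the Ifi200 family of DNA sensors, read 37.2, 34.3, 15.5 and 36.1 in sham and 129, 155, 106 and 118 at 14 dpi, so every injured sample was more than 2-fold above every sham sample (2.10 ± 0.28, adjusted p = 3.47e-05). Ifit2, which binds viral RNA, read 70.5, 59.2, 29.9 and 47.8 in sham and 127, 243, 166 and 177 at 14 dpi (1.84 ± 0.28, adjusted p = 0.000116). Ifih1, the cytoplasmic sensor of long double-stranded RNA, read 68.5, 78.0, 72.2 and 67.0 in sham and 111, 319.7, 184 and 176 at 14 dpi (1.47 ± 0.26, adjusted p = 0.00031). Neither gene overlapped between groups. Bst2, a membrane tether of budding virus, rose by 0.78 ± 0.16 (adjusted p = 0.00149) and Ifi35 by 0.70 ± 0.18 (adjusted p = 0.00799). Mx1 differed by 0.74 ± 0.32 (adjusted p = 0.0948), Ddx58 by 0.05 ± 0.20 and Stat2 by 0.16 ± 0.25. Ikbke, a kinase of interferon induction, rose with no overlap, reading 19.6, 42.1, 11.8 and 19.9 in sham and 56.3, 82.8, 78.2 and 92.9 at 14 dpi (1.80 ± 0.35, adjusted p = 0.000752). Of 5 tested interferon regulatory factors in the list, Irf1 rose, with 151, 154, 204 and 119.9 in sham and 246, 368, 335 and 345 at 14 dpi (1.03 ± 0.17, adjusted p = 0.000203), while Irf3, Irf5 and Irf8 differed by 0.44 ± 0.30, 0.13 ± 0.19 and 0.14 ± 0.15.

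**Figure D2:**
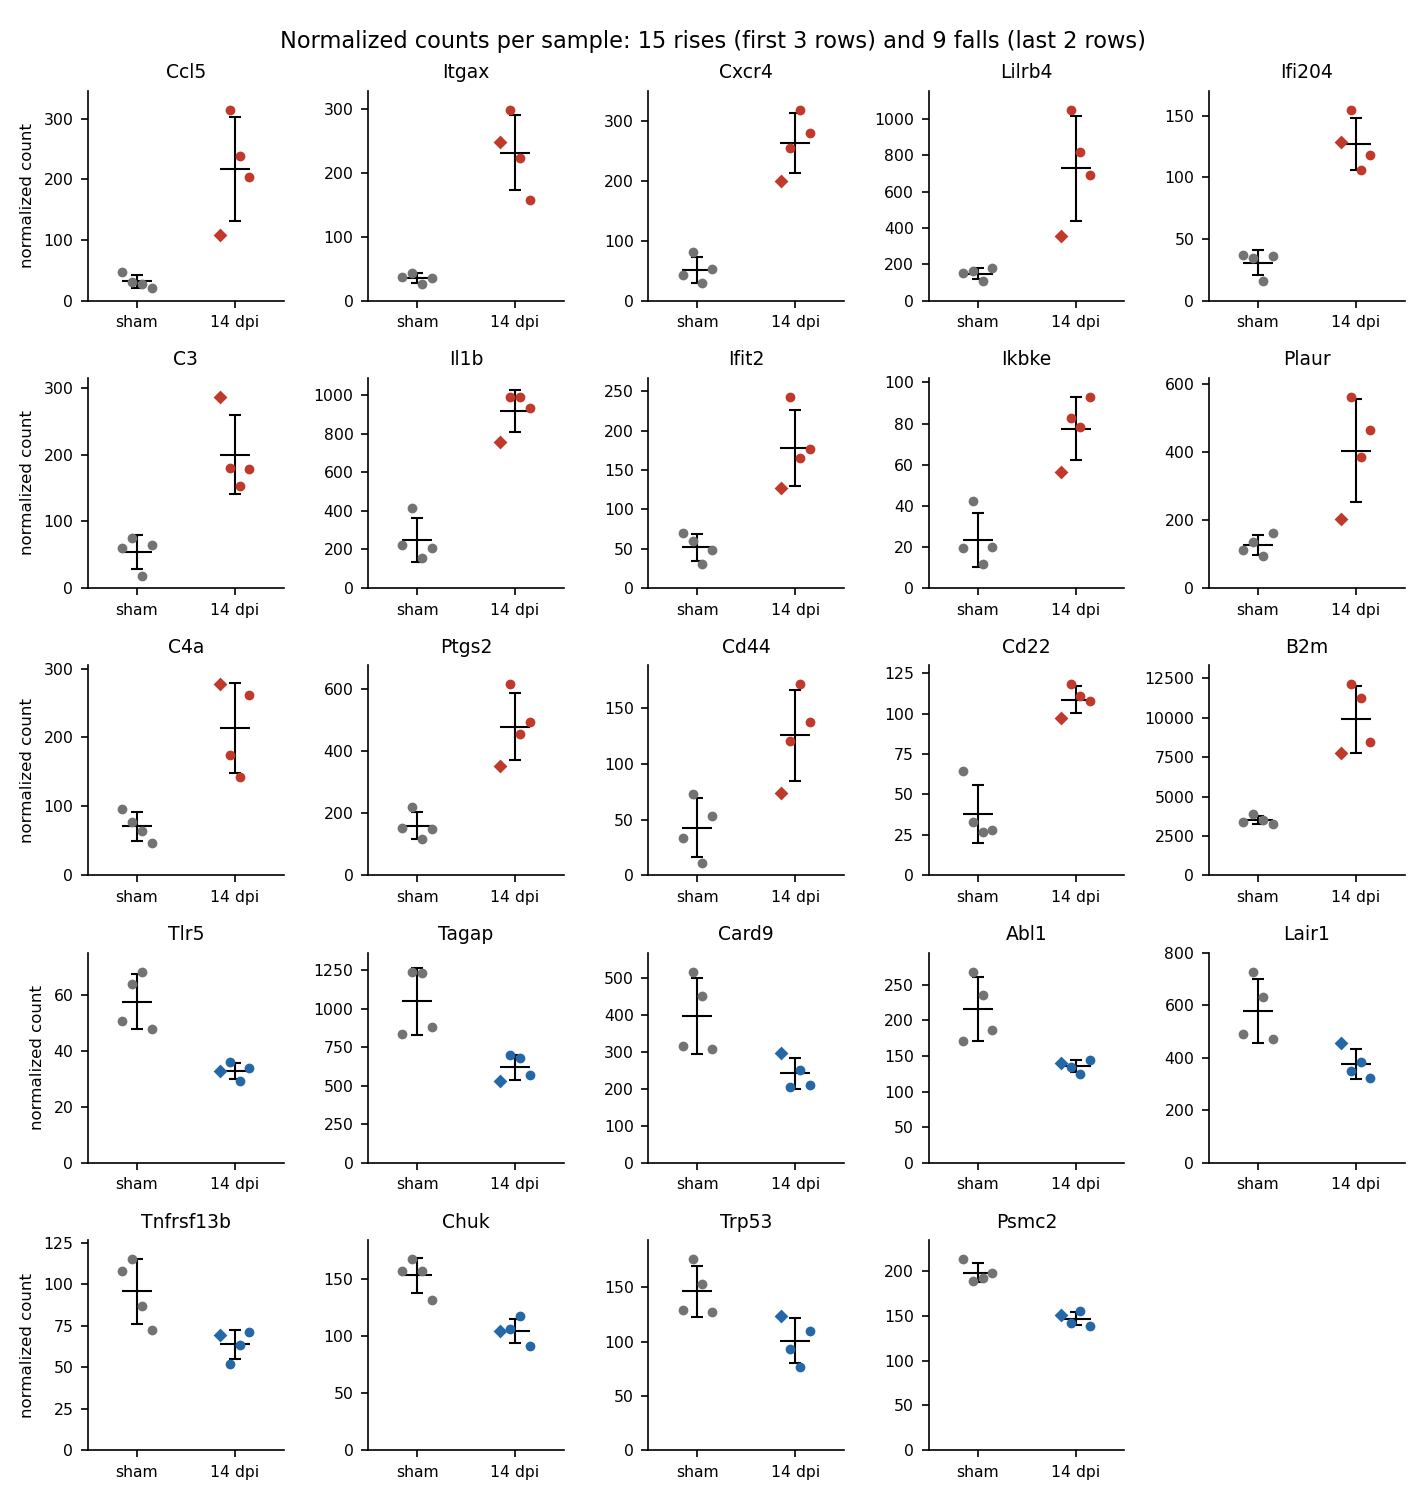
Normalized counts of the 15 largest rises and 9 falls without overlap between groups, with sham samples in grey, 14 dpi samples in red or blue, and the mean and SD (n = 4) as bars. The diamond is 14 dpi sample 1, which is the lowest red point in genes such as Ccl5 (108) and Lilrb4 (358) and the highest in C3 (287) and C4a (277).

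In the NF-kappaB pathway, inhibitors and the noncanonical subunits rose while the kinase Chuk and the adaptor Card9 fell. The list had 7 rises and 2 falls among 18 tested genes, beside 21.4% and 4.18% of all tested genes, with a median of 0.25. Nfkbia, the inhibitor that holds NF-kappaB dimers in the cytoplasm and is itself a target of the pathway, read 1490.1, 2431, 2229 and 1916 in sham and 2858, 3649, 3159 and 4375 at 14 dpi (0.80 ± 0.20, adjusted p = 0.0054). Tnfaip3, the ubiquitin-editing enzyme A20 that ends the signal, read 1284, 1660.4, 1952 and 1466 in sham and 2292, 4637, 3869 and 3585 at 14 dpi (1.18 ± 0.25, adjusted p = 0.00185). In both genes every injured sample exceeded every sham sample. Relb rose by 1.0 ± 0.21 (adjusted p = 0.00164) and its partner Nfkb2 by 0.80 ± 0.20 (adjusted p = 0.00649), the latter with 14 dpi sample 1, at 311, inside the sham range. Bcl3 and Nfkbiz, nuclear members of the inhibitor family, rose by 0.95 ± 0.31 and 0.67 ± 0.24 (adjusted p = 0.0311 and 0.0445). Bcl3 was not called without sham samples 3 or 4 or 14 dpi samples 2, 3 or 4 (adjusted p up to 0.0954), nor was Nfkbiz without any sample but sham sample 3 and 14 dpi sample 1 (adjusted p up to 0.163). Chuk, the catalytic kinase IKK alpha, read 157, 167, 157 and 131 in sham and 104, 106, 117 and 91.2 at 14 dpi. The groups did not overlap, and the fall by 0.54 ± 0.19 (adjusted p = 0.0427) passed only with all samples or without sham sample 4 (adjusted p up to 0.111 for the other 7 left out). The subunits Rela and Nfkb1 differed by 0.53 ± 0.20 and 0.23 ± 0.20 (adjusted p = 0.0622 and 0.428). Without 14 dpi sample 1 the list had 8 rises and 1 fall, and over all samples left out in turn 5 to 8 rises and 1 to 3 falls.

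Because several of these genes moved together, the 250 bases before the transcription start were searched on both strands for the kappaB consensus, the site bound by NF-kappaB dimers. Promoters from RefSeq (GRCm38.p6) were matched for 70 of the 92 called genes, 56 of the 77 higher and 14 of the 15 lower. The kappaB consensus was present in 12 of the 56 (21.4%) and in 0 of the 14, against 15 of 203 promoters of genes tested and not called (7.39%), and 1014 of 27025 promoters in the table (3.75%). A match describes letters in this window and does not show a bound site. The promoters of the inhibitors Nfkbia and Tnfaip3, of the receptor Tlr2 and of Ifnb1 are shown because they hold such a match beside a rise at 14 dpi, with the matching bases in capitals and the start site just after the last base.
Nfkbia (chr12:55492648-55492897, minus strand): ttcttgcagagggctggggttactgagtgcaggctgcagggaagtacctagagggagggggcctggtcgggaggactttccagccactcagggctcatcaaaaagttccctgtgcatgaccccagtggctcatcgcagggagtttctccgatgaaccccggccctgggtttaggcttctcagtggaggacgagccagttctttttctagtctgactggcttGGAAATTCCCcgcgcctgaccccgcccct
Tnfaip3 (chr10:19015411-19015660, minus strand): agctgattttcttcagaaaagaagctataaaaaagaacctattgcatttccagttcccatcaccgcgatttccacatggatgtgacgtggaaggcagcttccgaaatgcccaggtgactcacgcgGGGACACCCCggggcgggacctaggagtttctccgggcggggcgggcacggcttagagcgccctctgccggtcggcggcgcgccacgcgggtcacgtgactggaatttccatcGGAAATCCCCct
Tlr2 (chr3:83841609-83841858, minus strand): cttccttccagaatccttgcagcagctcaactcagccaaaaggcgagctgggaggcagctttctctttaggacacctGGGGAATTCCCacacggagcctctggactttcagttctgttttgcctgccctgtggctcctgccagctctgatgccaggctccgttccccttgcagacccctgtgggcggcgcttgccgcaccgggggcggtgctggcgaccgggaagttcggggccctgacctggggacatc
Ifnb1 (chr4:88522795-88523044, minus strand): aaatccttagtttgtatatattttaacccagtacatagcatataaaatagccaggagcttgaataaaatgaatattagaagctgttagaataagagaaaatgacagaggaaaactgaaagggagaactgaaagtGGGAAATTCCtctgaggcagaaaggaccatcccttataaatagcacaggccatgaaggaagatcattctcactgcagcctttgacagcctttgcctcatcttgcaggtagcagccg
In Nfkbia the match lay 29 bases before the start, in Tnfaip3 125 and 12, in Tlr2 173 and 172 (overlapping matches) and in Ifnb1 116 bases before it.

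Tlr2, the receptor of bacterial lipoproteins that signals to NF-kappaB, read 386, 433, 301 and 379.7 in sham and 775, 1298, 1040.4 and 1022 at 14 dpi. No injured sample came near the sham range, and the difference was 1.47 ± 0.19 (adjusted p = 1.82e-05). Cd14, the co-receptor of Tlr4 and Tlr2, rose by 0.94 ± 0.20 (adjusted p = 0.00162). These were the 2 of 16 tested Toll-like receptor and adaptor genes that rose, beside 21.4% of all tested genes. Tlr5 was the one that fell, with 50.9, 63.9, 68.4 and 47.8 in sham and 32.7, 36.1, 29.3 and 33.8 at 14 dpi (-0.81 ± 0.23, adjusted p = 0.012). Tlr4 and Tlr9 differed by -0.10 ± 0.19 and 0.18 ± 0.17, and the adaptor Myd88 by 0.56 ± 0.23 (adjusted p = 0.0861).

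Cell surface and adhesion genes included several with a wide gap between the groups. Itgax, the integrin chain CD11c, read 37.2, 43.7, 25.7 and 34.6 in sham and 248, 299, 223 and 157 at 14 dpi. The lowest injured sample was over 3-fold above the highest sham sample, and the log2 difference was 2.76 ± 0.26 (6.76-fold, adjusted p = 7.74e-07). Cxcr4, the receptor of Cxcl12, read 43.1, 81.1, 28.9 and 52.2 in sham and 200.3, 255, 319 and 280.4 at 14 dpi (2.40 ± 0.28, adjusted p = 1.07e-05). Lilrb4, an inhibitory receptor of myeloid cells, read 151, 161, 105 and 177 in sham and 358, 1051, 817 and 691 at 14 dpi (2.30 ± 0.33, adjusted p = 0.000127). In this gene sample 1 stood between the sham group and the other injured samples. Among 22 tested adhesion genes 8 rose and none fell, beside 21.4% and 4.18% of all tested genes, and 5 rose without 14 dpi sample 2 or sample 4. Icam1, the endothelial and leukocyte ligand of Itgb2 integrins, read 315, 298, 321 and 279.6 in sham and 364, 1027, 738 and 639 at 14 dpi (1.19 ± 0.24, adjusted p = 0.00129), and Vcam1, a ligand of Itga4 integrin, rose by 1.04 ± 0.26 (adjusted p = 0.00649). Cd44, the hyaluronan receptor, which monocytes and lymphocytes also carry, rose by 1.59 ± 0.48 (adjusted p = 0.0248) and was not called without sham sample 1 or 14 dpi samples 2, 3 or 4 (adjusted p up to 0.0603). The summed level of the 10 monocyte markers was 589 to 859 in sham and 736 to 1161 at 14 dpi, and Ccr2, the defining monocyte receptor, differed by 0.28 ± 0.30. The part of these cells in the rise of Cd44 was not tested. Itga6 and Itgam differed by -0.34 ± 0.16 and -0.32 ± 0.16 (adjusted p = 0.12 and 0.144).

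Genes of antigen presentation rose in both classes. B2m, the light chain of every class I molecule, read 3354, 3889.9, 3489.7 and 3282 in sham and 7783, 12113, 11243 and 8446 at 14 dpi, with every injured sample at 2-fold or more of the highest sham sample (1.5 ± 0.16, adjusted p = 2.78e-06). The peptide transporter Tap1 and its partner Tapbp rose by less, 0.51 ± 0.13 and 0.65 ± 0.13 (adjusted p = 0.00649 and 0.00124), Tap1 with no call under TMM factors or DESeq2's own size factors, and the class I heavy chain H2-K1 by 0.71 ± 0.22 (adjusted p = 0.0247), with no call without sham samples 1 or 4 or 14 dpi sample 4 (adjusted p up to 0.0846). H2-K1 belongs to a family of near-identical genes whose transcripts one probe may not tell apart. The class I and proteasome list had 4 rises and 1 fall among 10 tested, beside 21.4% and 4.18% of all tested genes. Its median of 0.16 became -0.02 with TMM factors. The proteasome subunit Psmc2 was the fall (-0.43 ± 0.14, adjusted p = 0.0342). It was not called without sham samples 1, 3 or 4 or 14 dpi samples 2, 3 or 4 (adjusted p up to 0.0834), while Psmb9 differed by 0.04 ± 0.19.

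Of 6 tested class II genes 4 rose, beside 21.4% of all tested genes. Cd74, the invariant chain that guides class II molecules, read 830.2, 1065, 837 and 631 in sham and 1622, 2054, 1814 and 1966 at 14 dpi (1.15 ± 0.18, adjusted p = 0.000127). H2-Aa, H2-Ab1 and H2-Eb1, the class II chains, rose by 0.97 ± 0.21, 0.95 ± 0.22 and 0.83 ± 0.23 (adjusted p = 0.00197, 0.00277 and 0.0126). H2-Ab1 read 215, 376, 202 and 179 in sham and 554, 409, 448 and 461 at 14 dpi, and in all 3 chains 14 dpi sample 1 was the highest of its group. These 4 rises were called on leaving out each of the 8 samples in turn (adjusted p up to 0.048, H2-Eb1). The peptide loader H2-DMa and its antagonist H2-Ob differed by 0.14 ± 0.16 and -0.19 ± 0.23. Ciita, the master factor of class II transcription, was not above background in any of the 8 samples. The dendritic cell markers, 4 on the panel with 2 not above background in any of the 8, summed to 115 to 226 in sham and 103 to 130.3 at 14 dpi.

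A site of the interferon-stimulated response element (core of 2 GAAA repeats set 2 bases apart, either strand) was present before the start of 5 of the 56 matched higher genes (8.93%), 11 of 203 genes tested and not called (5.42%) and 3.04% of all promoters, and a gamma-activated site (TTCNNNGAA) in 7 (12.5%), 13 (6.4%) and 7.18%. The latter site was also in 2 of the 14 lower genes (14.3%) and 44 of 415 panel genes (10.6%). Of the named interferon-induced rises with a matched promoter, Bst2 held the response element core, and Ifit2, Ifih1 and Ifi35 did not. The promoters of B2m and Bst2 are shown as the ones in which this core and the kappaB consensus stood side by side, with the matching bases of all 3 motifs in capitals.
B2m (chr2:122147437-122147686, plus strand): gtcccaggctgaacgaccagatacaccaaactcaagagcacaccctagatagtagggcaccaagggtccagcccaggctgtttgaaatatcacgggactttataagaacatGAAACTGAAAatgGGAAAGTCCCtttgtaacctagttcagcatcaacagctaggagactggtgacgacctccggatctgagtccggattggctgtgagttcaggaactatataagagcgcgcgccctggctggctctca
Bst2 (chr8:71537473-71537722, minus strand): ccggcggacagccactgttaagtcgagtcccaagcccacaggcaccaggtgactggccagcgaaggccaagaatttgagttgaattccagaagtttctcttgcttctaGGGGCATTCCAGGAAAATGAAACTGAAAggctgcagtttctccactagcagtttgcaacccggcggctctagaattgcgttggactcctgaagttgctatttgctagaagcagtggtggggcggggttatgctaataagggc
In B2m the core began 139 and the kappaB match 126 bases before the start. In Bst2 the core was found at 130 and 124 bases, overlapping itself, beside a gamma-activated site at 136 and the kappaB match at 142, which run into each other.

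Complement components rose in 3 of the 4 tested, beside 21.4% of all tested genes. C3, the central component that tags surfaces for uptake, read 60.7, 74.8, 17.6 and 64.0 in sham and 287, 181, 153 and 179 at 14 dpi (1.95 ± 0.40, adjusted p = 0.00197). C4a read 95.9, 78.0, 64.7 and 46.4 in sham and 277, 175, 143 and 262 at 14 dpi (1.63 ± 0.24, adjusted p = 8.7e-05). In mice C4a and C4b are near-identical copies, so the probe may count both. The summed endothelial and pericyte markers at 14 dpi, 1236, 454, 435 and 787 in samples 1 to 4, ran in the same order as C4a, and sample 1 was the highest in both and in C3. In sham samples 1 to 4 the sum was 456, 408, 659.8 and 499, which did not follow the order of C4a. The part of endothelial cells and pericytes in the rises of C3 and C4a was not tested. C1qa, a chain of the initiator C1q, rose by 0.50 ± 0.13 (adjusted p = 0.00685), and C1qb, which was above sham in every injured sample, differed by 0.30 ± 0.13 (adjusted p = 0.0948). Serping1, the inhibitor of C1, had no sham sample and 2 of 4 injured samples above background, and its mean at 14 dpi was at least 1.04-fold higher (adjusted p = 0.0344). That call was lost without sham samples 3 or 4 or 14 dpi samples 1, 2 or 4 (adjusted p up to 0.103).

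Enzymes of oxidation, lipid mediators and proteolysis rose in 9 of 15 tested, beside 21.4% of all tested genes. Ptgs2, the inducible cyclooxygenase that makes prostaglandin precursors, read 151, 219.8, 117 and 149 in sham and 352, 615, 456 and 493 at 14 dpi (1.60 ± 0.25, adjusted p = 0.000127). Ptger4, a receptor of prostaglandin E2, rose by 1.0 ± 0.26 (adjusted p = 0.00795). Plau, the urokinase protease, and its receptor Plaur rose together, Plaur from 112, 136, 95.2 and 160.4 in sham to 202, 561, 386 and 465 at 14 dpi (1.68 ± 0.32, adjusted p = 0.00124) and Plau by 1.17 ± 0.22 (adjusted p = 0.000533). Hif1a, the oxygen-regulated transcription factor, read 180.1, 161, 149.7 and 132 in sham and 315, 563, 474 and 349.7 at 14 dpi (1.46 ± 0.21, adjusted p = 5.92e-05). Cybb, the catalytic chain of the phagocyte NADPH oxidase, rose by 1.25 ± 0.36 (adjusted p = 0.0176) and was not called without sham sample 3 (adjusted p = 0.0518) or with TMM factors. Ctss, the lysosomal protease that trims the invariant chain, rose by 0.76 ± 0.14 (adjusted p = 0.000406). Nos2, the inducible nitric oxide synthase, differed by -0.03 ± 0.32.

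In the list of co-stimulation and checkpoint genes 3 of 8 tested rose and none fell, and in that of inhibitory receptors 3 of 10 rose and 1 fell. Over all tested genes 21.4% rose and 4.18% fell. Cd274, the ligand PD-L1, read 74.4, 70.2, 49.7 and 56.7 in sham and 113, 179, 182 and 149 at 14 dpi (1.33 ± 0.22, adjusted p = 0.000203). Its receptor Pdcd1 had no sham sample above background and was at least 1.43-fold higher at 14 dpi (adjusted p = 0.00197), with 40.5 to 60.4 and 3 of 4 samples above background. Cd83, a marker of activated antigen-presenting cells, read 1698, 2150.0, 1568 and 1384 in sham and 3156, 5816, 5062 and 4206 at 14 dpi (1.42 ± 0.23, adjusted p = 0.000134). Cd22, a sialic acid receptor of B cells that aged microglia also express, read 64.6, 32.7, 26.7 and 28.0 in sham and 97.4, 118, 111 and 108 at 14 dpi (1.58 ± 0.28, adjusted p = 0.000403). The 10 B cell markers summed to 691 to 1039.9 in sham and 759 to 939 at 14 dpi, with no background subtracted. Of these markers 7 were not above background in any of the 8, and Blnk alone read 258 to 488 in sham and 378 to 587 at 14 dpi. The costimulatory ligand Cd86 differed by 0.59 ± 0.21 and missed the threshold (adjusted p = 0.0504).

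Other genes that rose without overlap were receptors, kinases and transcription factors. Ccrl2, an atypical receptor that presents chemerin, read 666, 962, 862 and 715 in sham and 1388, 2285, 2169 and 1948 at 14 dpi (1.28 ± 0.22, adjusted p = 0.000279). Mapkapk2, the kinase below p38 that stabilizes cytokine mRNA, read 274, 337, 262 and 257 in sham and 412, 803, 703 and 689 at 14 dpi (1.21 ± 0.19, adjusted p = 0.000127). Nfil3, a leucine zipper factor, rose by 0.95 ± 0.19 (adjusted p = 0.000937), Crlf2, a receptor chain for thymic stromal lymphopoietin, by 1.07 ± 0.22 (adjusted p = 0.00124) and Igf2r, which binds mannose 6-phosphate, by 1.12 ± 0.31 (adjusted p = 0.0115), and all 5 of these genes were called on leaving out each sample. Less stable were Bcl6, Cd48, Cd97, Icam4, Il10rb, Il2rg, Ptafr and Ptpn2. They rose by 0.44 (Il10rb) to 0.98 (Icam4), and each lost its call without at least 3 of the 8 samples, with adjusted p up to 0.153 (Ptpn2). Bcl6, Cd97 and Icam4 were among those that overlapped sham.

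A list of 15 tested genes of disease-associated microglia was drawn up with results of these samples known and is therefore no independent evidence of direction. Where 21.4% of all tested genes rose, it held 13 rises and no fall. Beside Itgax, Csf1, B2m and Ctss, already described, it held Cd9, a tetraspanin that read 1075, 1093, 1299 and 1054 in sham and 1869, 2119.6, 2068 and 1806 at 14 dpi (0.80 ± 0.14, adjusted p = 0.000406). Tyrobp, the signaling adaptor of Trem2, rose by 0.49 ± 0.15 (adjusted p = 0.0275) and was not called without sham samples 1 or 4 or 14 dpi samples 2, 3 or 4 (adjusted p up to 0.0753). Trem2 itself, above sham in every injured sample, differed by 0.33 ± 0.16 (adjusted p = 0.136), and Ccl6 by -0.11 ± 0.15. Mbp, a myelin protein mRNA of oligodendrocytes, was among the 77 at 54.9, 91.6, 91.2 and 132 against 52.9, 74.8, 50.3 and 25.8 in sham (0.87 ± 0.31, adjusted p = 0.0456). It was not called without any sample but sham sample 2 and 14 dpi sample 1 (adjusted p up to 0.161), and the neuronal gene Thy1 differed by -0.98 ± 0.40 (adjusted p = 0.0782).

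**Figure D3:**
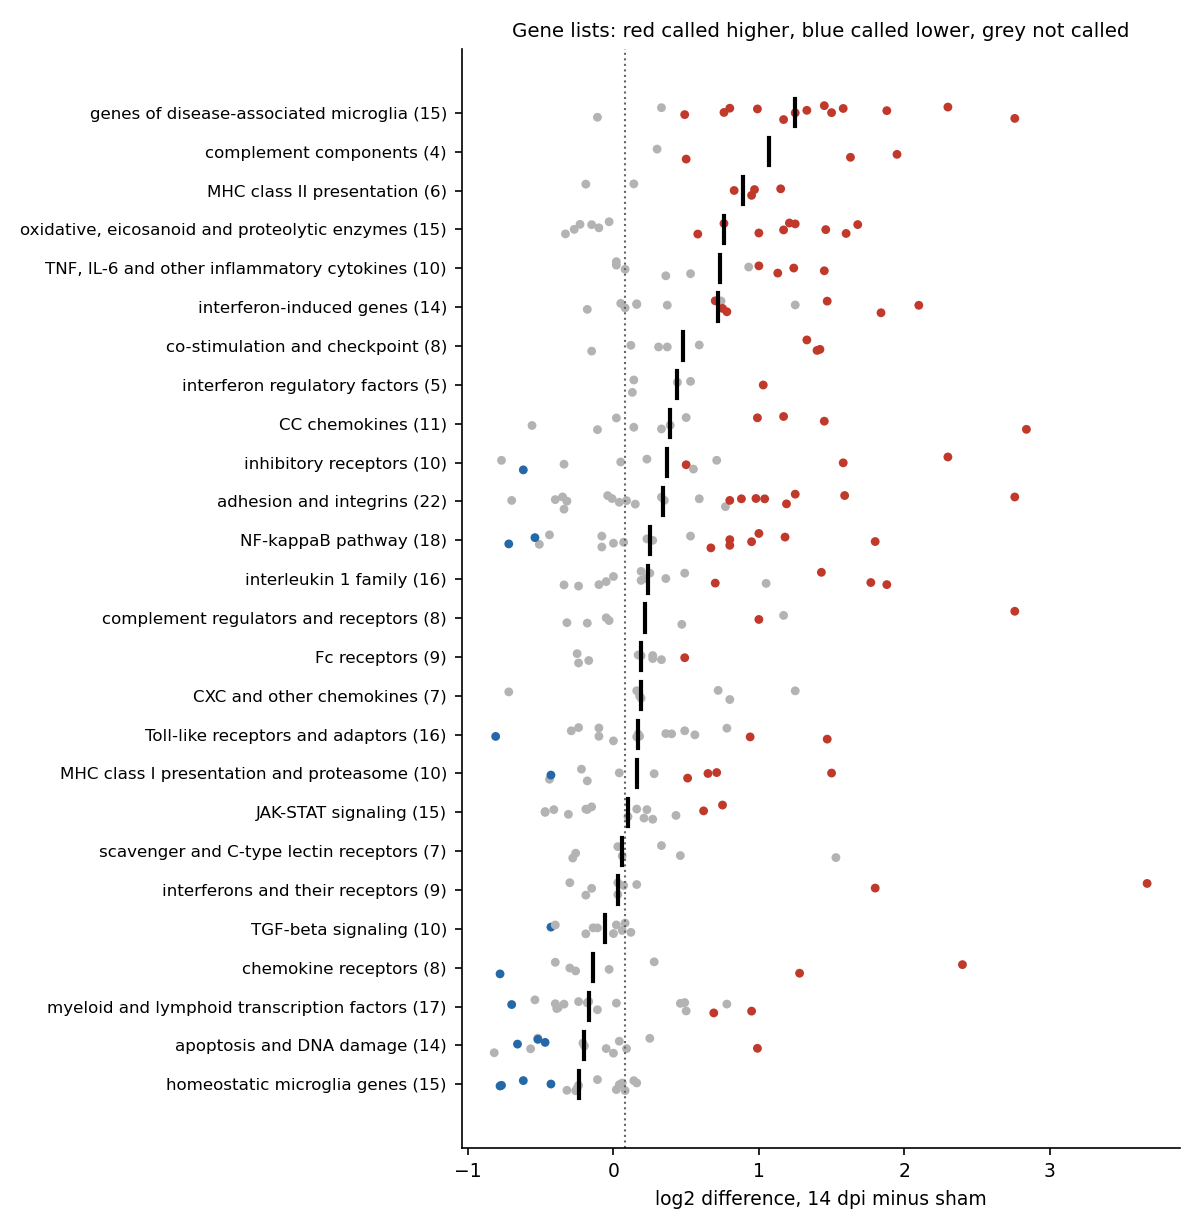
Log2 difference between 14 dpi and sham of every tested member of each gene list (number tested in brackets), with list medians as black bars and the median of all tested genes, 0.08, as the dotted line. Medians run from 1.25 for genes of disease-associated microglia to -0.24 for homeostatic genes, and several lists mix red rises with grey or blue members.

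The falls were smaller and lay in surface receptors, signaling and cell death genes. Among 15 tested homeostatic microglia genes 4 fell and none rose, with a median of -0.24, 8 fell with TMM factors and 2 without 14 dpi sample 4. Over all tested genes 4.18% fell, and 18.1% with TMM factors. Gpr183, an oxysterol receptor that guides migration, read 609, 1052, 892 and 699.7 in sham and 617, 448, 441 and 400.3 at 14 dpi. Only its sample 1 reached the sham range (-0.77 ± 0.20, adjusted p = 0.00723). Lair1, an inhibitory receptor for collagen, fell by 0.62 ± 0.17 (adjusted p = 0.0126) and was not called without 14 dpi sample 4 (adjusted p = 0.0536). Smad3, the transcription factor of TGF-beta signaling, fell by 0.43 ± 0.15 (adjusted p = 0.0406) and was called on leaving out sham sample 4 but none of the other 7 (adjusted p up to 0.12). The core homeostatic receptors Cx3cr1 and Csf1r overlapped sham and were not called. Cx3cr1 read 4347, 6713, 6633 and 5184 in sham and 5103, 4937, 4813 and 4218 at 14 dpi (-0.26 ± 0.15, adjusted p = 0.23), and Csf1r differed by -0.25 ± 0.16 (adjusted p = 0.278). Tgfb1 and its receptors Tgfbr1 and Tgfbr2 differed by 0.08 ± 0.15, -0.11 ± 0.18 and 0.06 ± 0.15.

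Tagap, a GTPase-activating protein of immune cells, read 838, 1239, 1231 and 884 in sham and 531, 696, 679 and 569 at 14 dpi (-0.76 ± 0.19, adjusted p = 0.00649). Card9, the adaptor that links Syk-coupled receptors to NF-kappaB, read 315, 516, 451 and 308 in sham and 296, 206, 252 and 211 at 14 dpi (-0.72 ± 0.19, adjusted p = 0.00799). Neither overlapped between groups, although the nearest samples were close. Il7r, the interleukin 7 receptor of lymphocytes, fell by 0.67 ± 0.22 (adjusted p = 0.0366), with overlap, and was not called without sham samples 1 or 2 or 14 dpi samples 1, 2 or 4 (adjusted p up to 0.128). Tnfrsf13b, a receptor of B cell survival factors, fell by 0.57 ± 0.20 (adjusted p = 0.0461) and kept its call on leaving out sham sample 4 and lost it for each of the other 7 (adjusted p up to 0.153). The T cell markers summed to 344 to 766 in sham and 354 to 654 at 14 dpi, with no background subtracted. In sham samples 1 to 4 the sums were 766, 734, 351 and 344, at factors of 0.511, 0.641, 1.87 and 1.36. At 14 dpi they were 354, 513, 607 and 654, at factors of 1.44, 1.03, 0.614 and 0.592. The sums were thus larger where the factor was small, and they do not measure T cell content. Abl1, a tyrosine kinase, fell by 0.66 ± 0.17 (adjusted p = 0.00755) and Ikzf1, the transcription factor Ikaros, by 0.70 ± 0.19 (adjusted p = 0.00889). In the list of apoptosis and DNA damage genes 3 of 14 fell, Abl1, the tumor suppressor Trp53 (-0.52 ± 0.17, adjusted p = 0.0303) and the initiator Casp8 (-0.47 ± 0.17, adjusted p = 0.0463), while the cell cycle inhibitor Cdkn1a, itself a target of Trp53, rose by 0.99 ± 0.22 (adjusted p = 0.00244). Over all tested genes 4.18% fell and 21.4% rose. Trp53 was not called without sham samples 2 or 3 or 14 dpi samples 2 or 3 (adjusted p up to 0.101), nor Casp8 without sham samples 2 or 3 or 14 dpi samples 2, 3 or 4 (adjusted p up to 0.164), so the list had 1 fall without sham samples 2 or 3 or 14 dpi samples 2 or 3 and 2 without 14 dpi sample 4. Without sham sample 4, the sample with neutrophil RNA, 25 genes were called lower and 60 higher, and 14 of the 15 falls and 60 of the 77 rises were among them. Without sham sample 2, 14 dpi sample 2, sample 3 or sample 4 the falls numbered 9, 8, 9 and 8.

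The injured samples were not alike. Over the 77 risen genes 14 dpi sample 1 was the lowest of the 4 in 50 (64.9%), beside 44.8% of all tested genes. It did not exceed the highest sham sample in 17, against 0 to 3 for each of the others. Sample 2 was the highest in 48, and its share over all tested genes was not counted. The 77 were called from these same samples, so the counts are a description. The genes in which sample 1 stayed near sham included cytokines, adhesion and stress genes. Tnf in that sample was 0.916 of the sham mean and 2.35-fold in the mean of the other 3, Il1a 0.953 and 1.84-fold, Cdkn1a 0.99 and 2.32-fold, and Itga5 0.987 and 2.73-fold. For Ifnb1 the ratios were 1.29 and 15.4, over sham values that were all below background. In a different set sample 1 was as high as the others or higher. C3 in sample 1 was 5.28-fold over the sham mean against 3.15-fold in the other 3, C4a 3.89 against 2.72-fold and H2-Ab1 2.28 against 1.81-fold. Its endogenous total of 238060 was the largest of the group. Without it 88 genes were called higher and 16 lower, and 76 of the 77 and 11 of the 15 were kept.

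**Figure D4:**
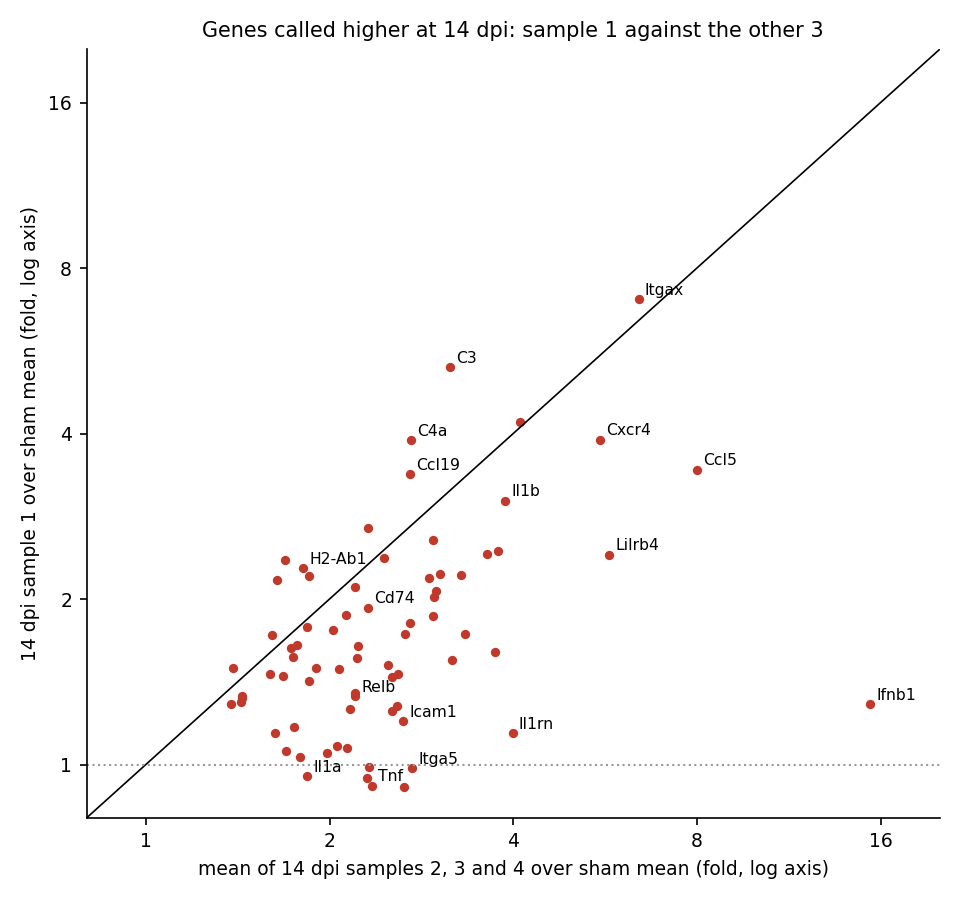
Each point is a gene called higher at 14 dpi, with the mean of 14 dpi samples 2 to 4 over the sham mean on the horizontal axis and sample 1 over the sham mean on the vertical axis (fold, both log axes). Points near the dotted line at 1, such as Tnf (0.916) and Ifnb1 (1.29), were at the sham level in sample 1 only. For Ifnb1 that sham level was below background. Points above the diagonal, such as C3 (5.28) and C4a (3.89), were higher in sample 1.

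Compared with 2 dpi, the cells at 14 dpi had 142 genes higher and 10 lower (39.6% and 2.79% of the tested), over a median difference of 0.43, which was -0.02 with TMM factors, where the calls were 44 and 23. Of the 77 genes above sham at 14 dpi, 61 were also higher than at 2 dpi, none was lower and 16 did not pass. The same 14 dpi samples chose the 77, so nothing is read from that share. At 2 dpi itself 26 genes were higher (7.24%) and 101 lower (28.1%) than in sham. Several genes near the sham level at 2 dpi were far above it at 14 dpi. Ccl5 was 2.60 higher than at 2 dpi on the log2 scale (adjusted p = 2.64e-05), with 0.24 between 2 dpi and sham, Itgax 2.17 higher (adjusted p = 4.81e-06) with 0.59, B2m 1.80 higher (adjusted p = 3.46e-07) with -0.30, and Cd22 1.62 higher (adjusted p = 0.000247) with -0.04. In contrast Il1b, Ptgs2, Tnf and Cd44 did not pass between times, at 0.25, 0.29, 0.08 and -0.45 (adjusted p = 0.554, 0.34, 0.865 and 0.423), and stood 1.64, 1.31, 0.92 and 2.04 over sham at 2 dpi. The class II genes Cd74, H2-Aa, H2-Ab1 and H2-Eb1 were 1.37, 1.24, 1.11 and 1.17 higher than at 2 dpi (adjusted p = 2.64e-05, 0.000247, 0.000687 and 0.000791), and passed with TMM factors too, at 0.94, 0.82, 0.69 and 0.76.

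Of the 15 genes below sham at 14 dpi, 14 did not pass against 2 dpi and Smad3 was 0.44 higher (adjusted p = 0.0258). Their own differences from sham at 2 dpi included -0.97 for Tagap and -1.24 for Tlr5. Abl1 differed by -0.82 at 2 dpi and -0.66 at 14 dpi, Casp8 by -0.67 and -0.47, and Card9 by -0.75 and -0.72. The median over all tested genes was -0.30 at 2 dpi and 0.08 at 14 dpi. Homeostatic genes not called against sham at 14 dpi were called above their level at 2 dpi, by 0.63 ± 0.15 for Cx3cr1, 0.84 ± 0.18 for Tgfbr1, 0.71 ± 0.15 for Tgfbr2 and 1.0 ± 0.19 for Entpd1, an ectonucleotidase (adjusted p = 0.00314, 0.00121, 0.00121 and 0.000529). These values stand beside the median of 0.43 over all tested genes and of 0.52 over the homeostatic list. With TMM factors they were 0.19, 0.41, 0.27 and 0.55, and of the 4 Entpd1 passed (adjusted p = 0.018) while Cx3cr1 did not (adjusted p = 0.356). The 10 genes lower than at 2 dpi included Cxcl3, a neutrophil attractant (fall by 3.10 ± 0.55, adjusted p = 0.000516, with no sample above background at 14 dpi), the extracellular matrix protein Tgfbi (1.44 ± 0.20 lower, adjusted p = 3.71e-05), and the scavenger receptors Msr1 and Cd36 (1.34 ± 0.22 and 1.13 ± 0.27 lower, adjusted p = 0.000238 and 0.00266). None of these 4 differed from sham at 14 dpi past the threshold, at -0.72 ± 0.59, -0.40 ± 0.20, 0.03 ± 0.23 and -0.28 ± 0.28. The 2 comparisons with sham share the same 4 sham samples, so their likeness is not independent.

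**Figure D5:**
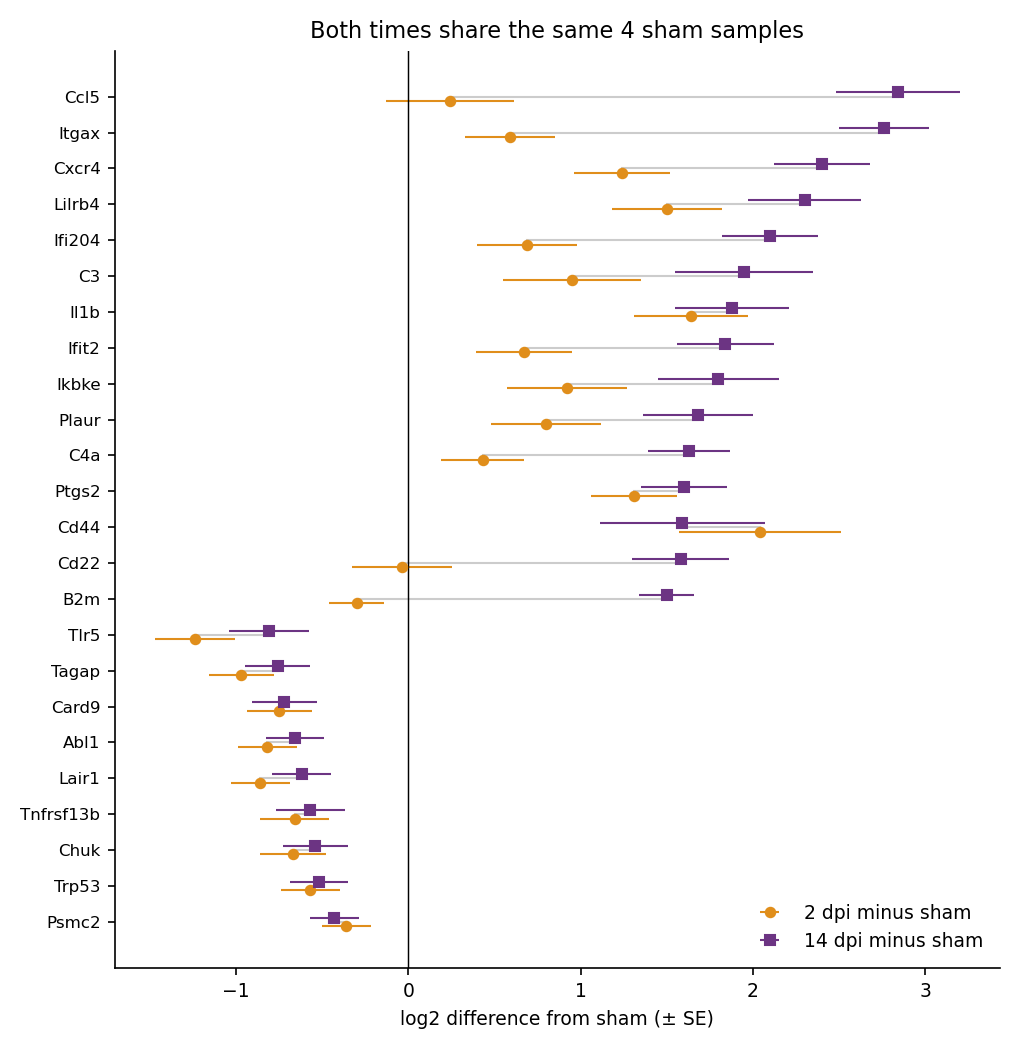
Log2 difference from sham at 2 dpi (orange circles) and at 14 dpi (purple squares) with SE, for the 15 rises and 9 falls plotted by sample. Ccl5, Itgax, Cd22 and B2m stand far to the right of their 2 dpi value, Il1b, Ptgs2 and Cd44 stand near it, and none of the 9 falls was called between 2 and 14 dpi.

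A list of 48 panel genes was drawn up because they are discussed for 14 dpi in these same samples, so its counts are a description only. It held 39 that could be tested, of which 27 were called higher, 4 lower and 8 neither way, where 21.4% and 4.18% of all tested genes were called. Among the untested were Cxcl9, Cxcl13, Ccl8, Cd69, C1s, Marco and Cd109, which had at most 2 of 4 injured samples and no sham sample above background. Cd109 had none in either group, and no fold is given for it.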

How the data were processed

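RNA from sorted microglia was hybridized to an nCounter panel, and the authors deposited a table of raw counts per probe and sample. The deposited values were entered as estimated counts, exported by the authors per lane without normalization, because 2 header lines of the table are not whole. Every probe value was whole, so rounding before the test changed none. A second deposited table holds the authors' normalized signal, which is the raw count less the mean of the negative controls, set to 0 where below and scaled to the housekeeping sum. That rule gave 8205 of its 8205 values within 0.001. It served only as an alternative. The counting software's version is not given in the sources used here.

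Each sample's factor was the product of its positive-control factor (6 controls) and its median ratio over 14 housekeeping genes, taken after subtracting the negative-control mean. These factors ran from 0.511 to 1.87 over the 15 samples. Endogenous totals of 66905 to 280528 in sham and 108128 to 238060 at 14 dpi set the precision, and background limits were 26.1 to 34.0 and 25.0 to 29.1 raw counts. Genes above background (mean plus 2 SD of 8 negative controls) in at least 3 of the 15 samples were tested with edgeR 4.0.16 (robust quasi-likelihood, R 4.3.3) in 1 fit with a mean for each of 4 groups, and p-values were Benjamini-Hochberg adjusted over all 359. The 60 dpi samples, from a second run with limits of 57.1 to 67.7 raw counts, thus entered the shared spread and the filter. Of the tested genes, 4 had no sham and no 14 dpi sample above background. Without the 60 dpi samples in the fit 79 genes were called higher and 15 lower than in sham. SE is the log2 difference divided by the square root of F. A fold is given as "at least" where no sham sample was above background, against the mean sham limit. Ratios to the sham mean and fitted log2 differences are not bounded in this way, so for such genes they compare with a background level. Alternatives used TMM, DESeq2 1.42.0, limma 3.58.1, other scalings and filters, and each sample left out. The fit was tested on simulated data. Same-group samples correlated at 0.943 to 0.984 on the log2 scale and no pair agreed within counting noise (chi-square per degree of freedom at least 3.38). The group sizes are given as mice, and each sample was taken as 1 mouse.

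The members and gene lists were chosen with earlier results of these data known. Genes shown by sample are the 15 largest rises and 9 falls that were called without overlap between groups, and genes discussed for this comparison and list members are named beside them. Some tested genes are not reported by name here. Promoters were the 250 bases before the first listed RefSeq start (GRCm38.p6).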

Additional observations from a re-analysis of the deposited data

Results flagged for a closer look

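In 2 of the 54 groups of 4 examined over 27 genes, 1 sample lay far from the other 3, where chance gives about 1 in 20 such groups. Ifi204 in sham sample 3 read 15.5 against 34.3 to 37.2 in the other sham samples (gap over range 0.866). Cd22 in sham sample 1 read 64.6 against 26.7 to 32.7 (gap over range 0.841). In both genes every injured sample still lay above every sham sample.

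For 12 of the 27 genes the difference from sham at 14 dpi was itself different from that at 2 dpi, tested as 14 dpi minus 2 dpi in the edgeR fit, where the sham samples drop out. These differences on the log2 scale were 2.60 for Ccl5 (adjusted p = 2.64e-05), 2.17 for Itgax (adjusted p = 4.81e-06), 1.80 for B2m (adjusted p = 3.46e-07), 1.62 for Cd22 (adjusted p = 0.000247), 1.41 for Ifi204 (adjusted p = 0.000529) and 1.21 for C4a (adjusted p = 0.000582). Smaller ones were 1.16 for Ifit2 (adjusted p = 0.00206), 1.15 for Cxcr4 (adjusted p = 0.00199), 1.0 for C3 (adjusted p = 0.0436), 0.88 for Plaur (adjusted p = 0.0349), 0.87 for Ikbke (adjusted p = 0.0357) and 0.80 for Lilrb4 (adjusted p = 0.0485). All 12 were chosen as large rises over sham in the same 14 dpi samples, so their shared direction is a description. Over all tested genes 39.6% were called higher and 2.79% lower at 14 dpi than at 2 dpi, with a median of 0.43. With TMM factors C3, Plaur, Ikbke and Lilrb4 did not pass, at 0.61, 0.43, 0.44 and 0.33 (adjusted p = 0.328, 0.379, 0.277 and 0.477).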

How the results depend on the processing

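No paired analysis was possible because the labels carry no replicate numbers shared between groups. Against sham, the 77 rises became 20 with positive-control factors alone. The 15 falls became 65 with TMM factors, 69 with DESeq2's own size factors, 26 with limma on the authors' values plus 10, 9 with no background filter, 8 with only the 2 groups in the fit and 0 with positive-control factors alone (edgeR, 10 at an unadjusted p under 0.05). Against 2 dpi, the 142 rises became 44 with TMM factors, 44 with DESeq2's own size factors and 7 with positive-control factors alone. The 10 falls became 23 with TMM factors, 28 with DESeq2's own size factors and 2 among genes with a mean of at least 100 normalized counts. Leaving out each sample in turn gave 59 to 88 rises and 8 to 25 falls against sham, and 105 to 143 rises and 6 to 10 falls against 2 dpi, the lowest count of falls without 2 dpi sample 3. The cause of these shifts was not tested, except that the median SE rose from 0.23 to 0.43 with positive-control factors alone.

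Of 91 called genes followed by name, 14 were called in every one of the 24 alternatives that tested them. Some of these were not tested in all 24, such as Ifnb1 (tested in 23) and Pdcd1 (tested in 22). Counted in the same way, 57 were called in all but positive-control factors alone. On leaving out each sample 61 stayed called, and 0 changed direction. A housekeeping factor without Tubb5 and Rpl19, chosen after seeing the data, gave 79 rises and 13 falls against sham. The rises not called with TMM factors were Bcl6, Cd48, Cybb, Il10rb, Il1a, Il1r2, Nfkbiz, Ptpn2, Tap1 and Tyrobp. Genes near the background limit, 17.7 to 53.0 normalized counts in sham, are the least precise.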
